A study of Mus musculus with 8 samples.

Results

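The Prss family of trypsin-like serine proteases was followed, through 10 of its testis genes (Prss21, Prss37, Prss39, Prss40, Prss44, Prss46, Prss50, Prss51, Prss54 and Prss55), across the 8 arrays of a study of Brwd1. Every probe set annotated with 1 of these symbols was taken, which gave 14 of the 45101 probe sets on the array and 10 of 18193 genes with a symbol of their own. RNA came from whole testes of mice aged 27 days, untreated, with 1 array per mouse. Of these mice 4 were labelled mutant, Brwd1-/-, and 4 were titled wild type, although the genotype entry of these controls reads Brwd1+/-, so they may carry 1 mutant copy. The labels name neither the kind of mutation nor the strain. At this age, per the design text, spermatids are present and midway through their development.

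Trypsin-like serine proteases cut proteins after basic residues with a catalytic triad of histidine, aspartate and serine, and many are made as inactive precursors. The testis expresses an unusually large number of them, several arranged in gene clusters, and germ cells use them or their catalytically inactive relatives in the acrosome and on the sperm surface. Acrosin, encoded by Acr, is the best known acrosomal protease. Prss21 encodes testisin, a protease anchored to the membrane of germ cells and sperm. Prss39 and Prss40 encode the sperm acrosomal proteins TESP1 and TESP2, and Prss44 and Prss46 belong to the TESSP genes of the testis. Prss50 encodes TSP50, in which threonine replaces the catalytic serine. Prss37 and Prss54 encode proteins classed as inactive relatives of proteases. Male mice without Prss37 or without Prss55 are infertile, with sperm that lack mature ADAM3, a surface protein needed to pass into the oviduct.

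The signals are intensities scaled so that each array has the same trimmed mean, 500, and median intensities lay between 90.7 and 124. Intensities of different probe sets are not comparable, so levels of single genes are set against each other only within a probe set. Sums over marker lists are compared only between mice, and the brightest markers weigh most in them. Brwd1 itself passed no test on any of its 4 probe sets above the filter (log2 differences from -0.28 to 0.31), and what these probe sets say about the mutation is unknown. Replicates 3 and 4 of both genotypes stood apart from replicates 1 and 2. The summed intensity of 5 epididymis markers lay between 131 and 305 in replicates 1 and 2 and between 34647 and 42415 in replicates 3 and 4. Mutant replicate 1 had the lowest summed intensity of 7 spermatid markers, 2927, against 10579 to 22269 in the other mutants and 65049.6 to 115555 in the controls. Results are therefore also given with replicate number or batch (replicates 1 and 2 against 3 and 4) as a block, and without mutant replicate 1. The labels name no batch, so the word stands here only for this split, which was taken from the data.

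Of the 10 genes 4, namely Prss51, Prss37, Prss55 and Prss54, were lower in each of the 4 mutants than in each of the 4 controls, and the other 6 overlapped between genotypes. Over all 13787 genes tested, such a separation downwards occurred in 5.26% and one upwards, shown by none of the 10, in 2.53%. The same 4 had log2 differences below -1, as did 4.15% of all genes. Without a block 1 member, Prss51, fell (limma, adjusted p over all genes under 0.05), where 0.268% of all genes fell. With replicate number as a block 3 fell, Prss51, Prss37 and Prss55, where 3.12% of all genes fell, and with the batch as a block the same 3 fell, where 2.16% did. None of the 10 rose in these 3 fits, where 0.0145% (no block), 0.326% (replicate block) and 0.471% (batch block) of all genes rose. The median log2 difference was -0.24 over the 10 genes and 0.07 over all genes tested. In bulk tissue, fewer cells of a type and less RNA per cell cannot be told apart.

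**Figure D1:**
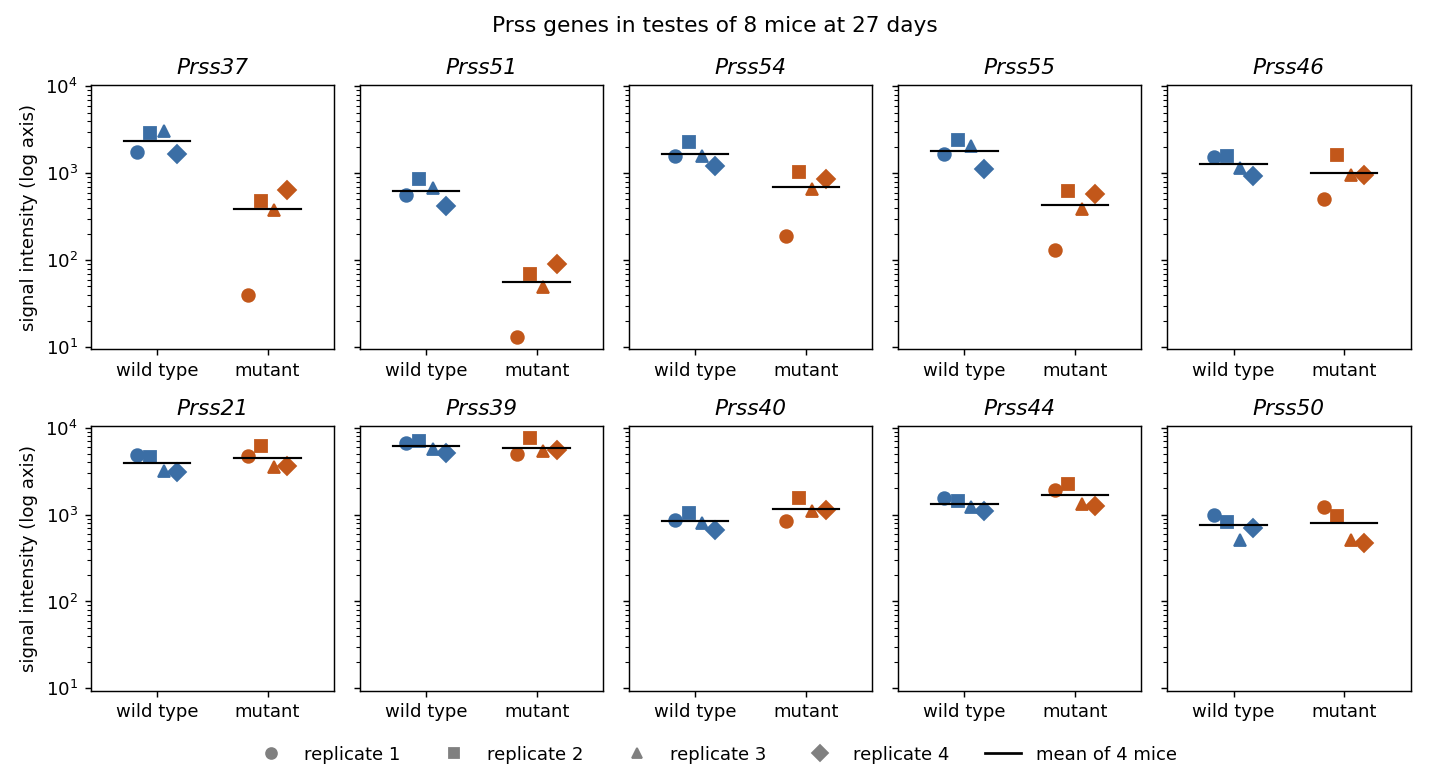
Signal intensity (log axis) of the 10 Prss genes in each mouse, 1 panel per gene, with controls titled wild type at the left and mutants at the right, a symbol for each replicate number and a line at the mean of 4 mice. In the panels of Prss37, Prss51, Prss54 and Prss55 all mutants lie below all controls, with mutant replicate 1 lowest, and in the other panels the genotypes overlap.

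Prss51, a protease gene of chromosome 14, showed the largest difference. Its intensity was 561, 855, 678 and 423 in control replicates 1 to 4. In mutant replicates 1 to 4 it was 12.95, 70.1, 48.6 and 90.2. The brightest mutant was thus far below the dimmest control, and mutant replicate 1 was dimmest of all. The means were 629 ± 183 and 55.5 ± 33.0 (SD, n = 4 each), a log2 difference of -3.28 (95% interval -4.19 to -2.38; standard error 0.40; limma, adjusted p = 0.0229). Since 16 was added before taking logs, this 9.73-fold fall understates a ratio of means of 11.3. Only 6 of the 13787 genes had a lower log2 difference. Its adjusted p was 0.00878 once replicate number was the block and 0.00864 once batch was. The call without a block was lost when control replicate 1, 2 or 3 or mutant replicate 3 was left out (limma, adjusted p = 0.0890, 0.0901, 0.114 and 0.0979), while the log2 difference stayed between -3.52 and -2.90 over all 8 such fits. By their mean log2(value + 16) the mutants alone lay below the filter on dim probe sets, 6.31, so Prss51 passed it through the controls. Without that filter its adjusted p was 0.0236 (limma, no block). How far the mutant values lay above background is unknown, since no detection calls were used here.

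Prss37 read 1739, 2917, 3068 and 1649 in control replicates 1 to 4. The mutants, in the same order, read 40.3, 486, 377 and 637. Mutant replicate 1 held 1.72% of the control mean and the other 3 mutants 16.1% to 27.2%. The means were 2344 ± 753 and 385 ± 253 (SD, n = 4 each), a log2 difference of -2.96 (95% interval -4.54 to -1.38). It missed the threshold without a block (limma, adjusted p = 0.112) but fell when replicate number (0.0243) or batch (0.0468) was the block. With mutant replicate 1 left out its log2 difference became -2.17, and it passed without a block too (limma, adjusted p = 0.0235).

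Prss55, which encodes a sperm protein needed for male fertility, read 1676, 2443, 2049 and 1129 in control replicates 1 to 4. The mutants read 131, 629.8, 391 and 574. Its controls and mutants were separated, with control replicate 4 and mutant replicate 1 the lowest of their groups. The means were 1824 ± 559.5 and 431 ± 225 (SD, n = 4 each), a log2 difference of -2.19 (95% interval -3.23 to -1.15). It was not called without a block (limma, adjusted p = 0.0905) but fell under the replicate block (0.0230) and under the batch block (0.0433). Leaving out mutant replicate 1, the difference was -1.72 and passed without a block (limma, adjusted p = 0.0338).

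Prss54, which encodes an inactive relative of plasma kallikrein, had the smallest of these differences. It read 1578, 2303, 1574 and 1201 in control replicates 1 to 4. The mutants read 192, 1049, 654 and 859. The genotypes did not overlap, and mutant replicate 2 (1049) came nearest to control replicate 4 (1201). The log2 difference was -1.45 (95% interval -2.51 to -0.38), and it missed the threshold without a block (limma, adjusted p = 0.272) as with the replicate block (0.0728) or the batch block (0.146). It was -0.94 without mutant replicate 1. With that mouse left out and the batch as a block it fell (limma, -0.86, adjusted p = 0.0150), as it did with array weights (-1.19, adjusted p = 0.0354).

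**Figure D2:**
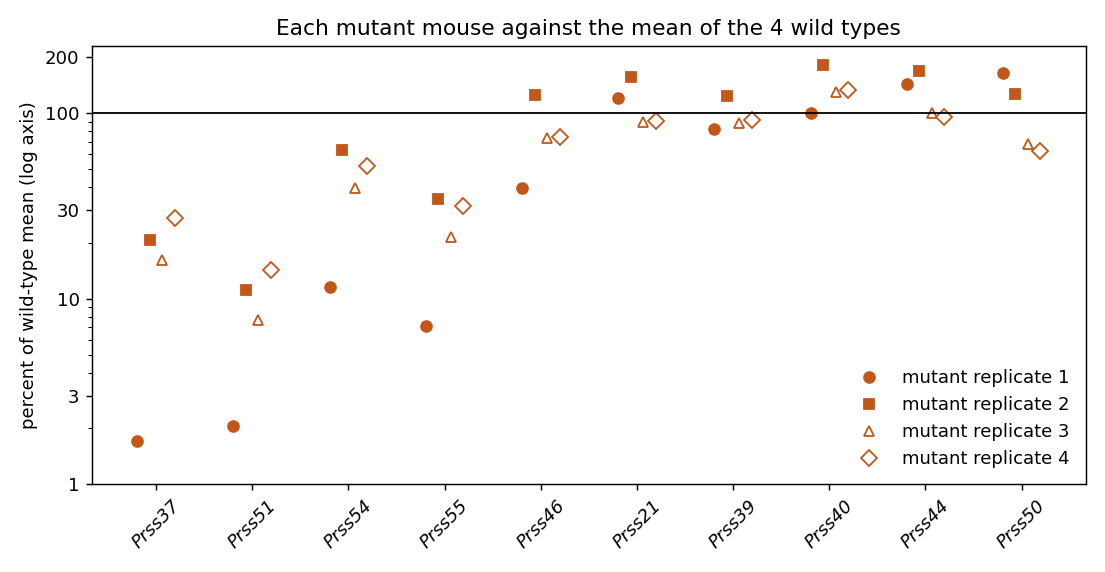
Intensity of each mutant mouse as a percent of the mean of the 4 controls (log axis) for the 10 Prss genes, with filled symbols for replicates 1 and 2 and open symbols for replicates 3 and 4. Mutant replicate 1 lies at 1.72% for Prss37 and 2.06% for Prss51 but at 164% for Prss50, and the line marks 100% of the control mean.

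The 4 mutants kept nearly the same order in these 4 genes. Mutant replicate 1 was lowest and mutant replicate 3 next in each, and replicates 2 and 4 exchanged the first place. This order was not particular to them. Prss39, Prss40 and Prss46, which overlapped between genotypes, had the same order of mutants as Prss54 and Prss55. Mutant replicate 1 was the lowest mutant in 7 of the 10 genes. In percent of the control mean, mutant replicate 1 held 2.06% of Prss51, 1.72% of Prss37, 7.15% of Prss55 and 11.6% of Prss54. The other mutants held 7.72% to 14.3% of Prss51, 21.5% to 34.5% of Prss55 and 39.3% to 63.0% of Prss54. The summed spermatid markers had the same order of mutants at the low end: they were lowest in mutant replicate 1, then in mutant replicate 3. All 7 markers were lower in every mutant than in every control, none was at 0, and 1 of 7 fell without a block (Prm2), 6 under replicate blocking and 4 under batch blocking. The part of spermatid number or stage in the Prss differences was not tested.

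In the promoter table from RefSeq 7 of the 10 genes were matched. The 250 bases before the annotated start are shown for Prss37 and Prss54, which were lower in mutants, and for Prss21 and Prss46, which overlapped between genotypes. Capitals mark the motifs GTTGCC (an X-box half-site, bound by RFX factors) and CCAAT (the CCAAT box), searched on both strands together with TGACGTCA (the cAMP response element), its shorter form TGACG, contained in it, and TATAAA (the TATA box). Sequences run 5′ to 3′ along the gene, assembly GRCm38.p6.
Prss37, chr6:40519509-40519758, minus strand: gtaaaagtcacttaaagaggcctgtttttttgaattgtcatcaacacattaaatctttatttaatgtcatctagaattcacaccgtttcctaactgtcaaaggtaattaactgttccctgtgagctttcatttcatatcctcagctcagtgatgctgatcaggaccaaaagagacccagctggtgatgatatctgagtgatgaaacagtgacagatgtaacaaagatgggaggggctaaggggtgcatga
Prss54, chr8:95575608-95575857, minus strand: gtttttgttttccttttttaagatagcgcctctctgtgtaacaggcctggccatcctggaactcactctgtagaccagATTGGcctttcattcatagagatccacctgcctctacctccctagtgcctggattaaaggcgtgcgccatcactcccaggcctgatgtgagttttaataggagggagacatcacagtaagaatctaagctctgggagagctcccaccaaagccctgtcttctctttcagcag
Prss21, chr17:23867822-23868071, plus strand: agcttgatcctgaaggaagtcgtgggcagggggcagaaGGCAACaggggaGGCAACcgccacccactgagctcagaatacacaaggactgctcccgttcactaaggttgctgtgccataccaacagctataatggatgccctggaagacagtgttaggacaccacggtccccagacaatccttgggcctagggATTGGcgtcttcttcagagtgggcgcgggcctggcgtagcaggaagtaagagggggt
Prss46, chr9:110844256-110844505, plus strand: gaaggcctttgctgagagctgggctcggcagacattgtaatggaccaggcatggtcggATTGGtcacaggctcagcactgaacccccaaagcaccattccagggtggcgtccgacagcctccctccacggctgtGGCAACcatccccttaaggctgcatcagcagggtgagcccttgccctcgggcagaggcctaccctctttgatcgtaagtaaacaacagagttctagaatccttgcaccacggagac

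The window of Prss37 held none of the 5 motifs and that of Prss54 held CCAAT once, on the opposite strand, beginning 172 bases before the start. Prss21 held GTTGCC on the opposite strand beginning 212 and 200 bases before its start and CCAAT beginning 57 bases before it. Prss46 held GTTGCC beginning 116 bases and CCAAT beginning 192 bases before its start, both on the opposite strand. Among 32851 promoter windows of the same length 10.4% held GTTGCC, 33.8% CCAAT, 17.8% TGACG, 12.4% TATAAA and 1.55% TGACGTCA. No TGACG or TATAAA was found in the windows of Prss21, Prss37, Prss39, Prss40, Prss46, Prss50 or Prss54. Prss39, Prss40 and Prss50, not shown, overlapped between genotypes too and held no GTTGCC, like Prss37 and Prss54. Prss39 held CCAAT once, on the opposite strand, beginning 209 bases before its start. Prss40 and Prss50 held none of the 5 motifs. The matches describe letters in these windows and are not measurements of binding.

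Among the acrosomal and membrane-bound members, no difference passed. Prss21 read 4889, 4569, 3207 and 3116 in controls and 4747, 6163, 3516 and 3589 in mutants, replicates 1 to 4. In both genotypes replicates 1 and 2 were brighter than replicates 3 and 4. The log2 difference was 0.18 (95% interval -0.33 to 0.69; limma, adjusted p = 0.966). Prss39 read 6629, 6976, 5734 and 5058 in controls and 4984, 7558, 5417 and 5573 in mutants. Its log2 difference of -0.06 had the narrowest interval of the 10 genes without a block, -0.42 to 0.31. Prss40 read 875, 1052, 809 and 661 in controls and 850.0, 1547, 1108 and 1129 in mutants. Of its mutants 3 lay above all controls, and mutant replicate 1 lay within their range. The log2 difference was 0.43 (95% interval -0.05 to 0.90; limma, adjusted p = 0.609), and 0.63 with the batch as a block and mutant replicate 1 left out, the one fit of those run in which it rose (adjusted p = 0.0151).

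The members of the chromosome 9 cluster also overlapped between genotypes. Prss44 read 1561, 1436, 1207 and 1101 in controls and 1899, 2228, 1325 and 1268 in mutants on its brightest probe set. The log2 difference was 0.31 (95% interval -0.17 to 0.79; limma, adjusted p = 0.827). Prss46 read 1537, 1575, 1155 and 919.8 in controls and 513, 1619, 957 and 968 in mutants. Only mutant replicate 1 lay below the lowest control, and the log2 difference of -0.43 (95% interval -1.17 to 0.32; limma, adjusted p = 0.882) became -0.14 without that mouse. Prss50 read 986, 821, 504 and 699.6 in controls and 1238, 953, 510.4 and 470.5 in mutants. Here mutant replicate 1 was the brightest mutant, at 164% of the control mean, and the log2 difference was 0.00 (95% interval -0.77 to 0.76). These intervals leave room for changes of up to about the size of 1 log2 unit in Prss46 and somewhat less in Prss44 and Prss50.

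**Figure D3:**
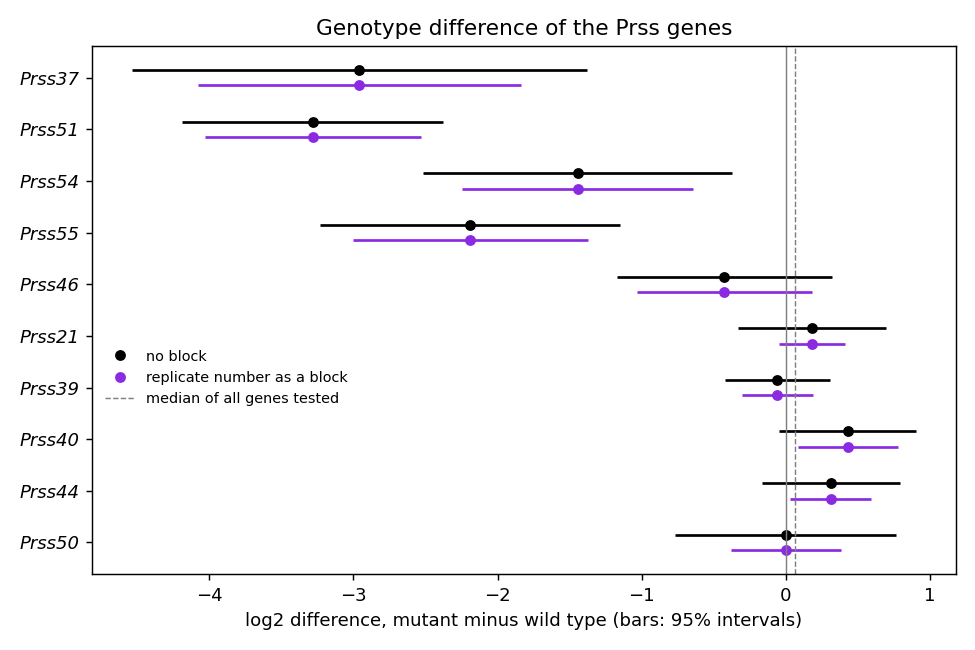
Log2 difference, mutant minus control titled wild type, with its 95% interval for the 10 Prss genes, without a block and with replicate number as a block, and a dashed line at the median of all genes tested, 0.07. The intervals of Prss37, Prss51, Prss54 and Prss55 lie below 0 in both fits, those of Prss21, Prss39, Prss46 and Prss50 cross 0 in both, and those of Prss40 and Prss44 lie above 0 only with the block, where neither is called.

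Prss44 and Prss37 had more than 1 probe set. The 3 Prss44 probe sets above the filter had log2 differences of 0.31, 0.33 and 0.12, none called in the test over 27022 probe sets with or without a block. The probe set with the difference of 0.12 is of a type that can match several related transcripts, and it read 1233, 939.97, 705 and 683 in controls and 1499, 1179, 701 and 628 in mutants. The fourth Prss44 probe set, between 9.96 and 68.4 on all arrays, and the second Prss37 probe set, between 7.63 and 49.5, lay below the filter on dim probe sets and were not tested. So 12 of the 14 probe sets entered the tests. On the level of probe sets, 1 (Prss51) was called without a block, where 0.111% of all probe sets fell, and 3 (Prss51, Prss37 and Prss55) were called lower with either block, where 2.12% fell under replicate blocking and 1.45% under batch blocking. None of the 12 was called higher, as were 0%, 0.211% and 0.311% of all probe sets in these fits.

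Levels were also compared between the batches. With genotype in the model, Prss50, Prss21 and Prss44 were lower in replicates 3 and 4 than in replicates 1 and 2, by log2 values of -0.85, -0.59 and -0.52 (limma, adjusted p = 0.00374, 0.00136 and 0.00468). Over all genes 20.3% were lower there and 22.2% higher. The other 7 members were not called between batches. The genotype difference within replicates 1 and 2 and within replicates 3 and 4 was -3.83 and -2.74 for Prss51, -3.76 and -2.16 for Prss37, -2.73 and -1.65 for Prss55, and -2.03 and -0.86 for Prss54. All 4 were nearer to 0 in replicates 3 and 4, which do not hold mutant replicate 1. A test of the difference between batches called 0 of the 10 members (limma, interaction, lowest adjusted p = 0.738), and 0 at an unadjusted p under 0.05. It called 0% of all genes, 738 of them having an unadjusted p under 0.05.

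Prss55, Prss51 and Prss52 lie next to each other on chromosome 14, in that order in RefSeq (GRCm38.p6), and all 3 were lower in every mutant than in every control. Prss52, which encodes TESP3, read 462, 836, 707 and 371 in controls and 5.65, 129.7, 67.5 and 148 in mutants. Its genotypes were separated too, with mutant replicate 1 again lowest. The log2 difference was -2.84 (95% interval -4.21 to -1.47), not called without a block (limma, adjusted p = 0.0927) but lower under the replicate block (0.0221) and under the batch block (0.0428). On one side of these genes Msra and Kif13b had log2 differences of 0.30 and 0.13 and were not called in the 3 fits. On the other side Rp1l1 was not tested, and the clone-named gene 4930578I06Rik had -1.49, not called either (limma, adjusted p = 0.378 without a block and 0.131 with the replicate block).

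The larger cluster on chromosome 9 holds Prss42, Prss44, Prss43, Prss45, Prss46 and Prss50 in that order. Of its 5 genes tested, none was called in any of the 3 fits, and the log2 differences lay between -0.43 (Prss46) and 0.31 (Prss44). Prss42 and Prss45 had 0.08 and 0.01. Prss43 was not tested. Prss39 and Prss40 lie on chromosome 1 with Cfc1 between them (log2 difference 0.01). Prss54, on chromosome 8, lies between Ccdc113 and Gins3, whose log2 differences were 0.01 and -0.04. Whether the clusters differ from each other was not tested, since the genes were chosen with these results known.

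**Figure D4:**
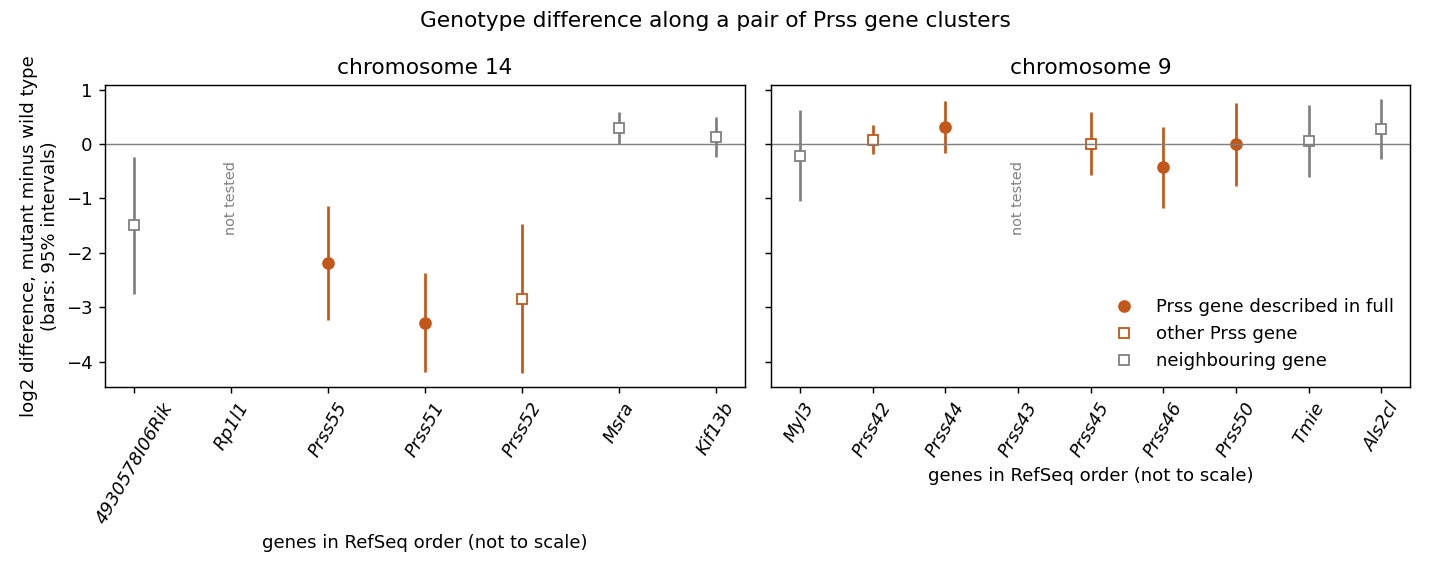
Log2 difference, mutant minus control titled wild type, with its 95% interval without a block, for genes in RefSeq order around Prss51 on chromosome 14 and around Prss42 to Prss50 on chromosome 9, with orange for Prss genes and grey for their neighbours. Prss55, Prss51 and Prss52 lie between -3.28 and -2.19, and the 5 Prss genes tested on chromosome 9 lie between -0.43 and 0.31.

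Of 31 other Prss genes and acrosin listed for comparison, 13 were tested. None was called without a block (limma; 2 had an unadjusted p under 0.05, Prss52 and Prss58), and 1, Prss52, fell with either block. The median log2 difference was -0.03. Prss58, a close relative of trypsin, averaged 212 ± 36.1 in controls and 111 ± 60.3 in mutants (SD, n = 4 each) on 1 of its probe sets, a log2 difference of -1.01 that was not called (limma, adjusted p = 0.425, and 0.119 with the replicate block). Its other probe set, not used in the test by gene, read 208, 268, 107 and 96.8 in controls. In mutants it read 40.1, 81.4, 41.1 and 52.0. On both probe sets every mutant lay below every control. Prss2 and Prss41 had log2 differences of -0.39 and 0.16. Acr, the gene of acrosin, read 4098 ± 581 and 3927 ± 855 (SD, n = 4 each), a log2 difference of -0.07.

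Prss37 and Prss55 act in the maturation of ADAM3. Of 14 other genes of that process tested, none was called without a block (limma; 4 had an unadjusted p under 0.05, 3 of them lower), and with either block 1 fell (Calr3) and 1 rose (Tex101), where 3.12% of all genes fell and 0.326% rose with the replicate block. Calr3, a chaperone of the endoplasmic reticulum needed for ADAM3, averaged 1016 ± 310.1 in controls and 237 ± 99.0 in mutants (SD, n = 4 each), with a log2 difference of -2.10 (limma, adjusted p = 0.0127 with the replicate block). Tex101, a surface protein of germ cells, had a log2 difference of 1.00 (0.00766 with the replicate block). Pdilt and Ace had -1.54 and -1.14 and were not called in the 3 fits (limma, adjusted p = 0.0833 and 0.0503 with the replicate block). Calr3, Pdilt and Ace were lower, and Tex101 higher, in every mutant than in every control, and the rest overlapped. Over all genes 5.26% were separated downwards and 2.53% upwards. The median log2 difference of the list was 0.01, and Adam3 itself had -0.38 (limma, adjusted p = 0.894).

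Serine protease inhibitors, which hold such enzymes in check, were not called in any of the 3 fits, 0 of 10 tested (limma; 0 at an unadjusted p under 0.05 without a block), with a median log2 difference of 0.13. Eppin, Spint2 and Serpina5 had 0.16, 0.10 and 0.22. Spink10 had 1.23, with intensities of 788 ± 653 and 1398 ± 1343 (SD, n = 4 each), a spread that exceeded the difference. With the replicate block its standard error was 0.46 rather than 1.42 (limma, unadjusted p = 0.0309, adjusted p = 0.234). Spint4 had 0.84 (limma, replicate block, unadjusted p = 0.0183, adjusted p = 0.183). With the batch block Serpina5 had an unadjusted p of 0.0499 (limma, adjusted p = 0.284). Of 15 acrosome genes 14 had negative log2 differences, with a median of -0.89, and none was called in the 3 fits (limma; 5 had an unadjusted p under 0.05 without a block). Over all genes tested, 37.0% had log2 differences at or below -0.0015, that of Prss50. Acr, Zpbp, Acrbp, Dpy19l2 and Crisp2 lay near 0, between -0.14 and -0.07, and Zpbp2 had 0.14. Spaca4, Izumo1, Acrv1 and Spaca3, membrane and matrix proteins of the acrosome, had -1.25, -1.80, -1.34 and -1.09. Acr belongs to this list and to that of other Prss genes, and Acrv1 to this list and the spermatid markers.

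Markers of other cells of the testis and of the epididymis overlapped between genotypes in their summed intensity, in each of the 6 lists. For the epididymis list the batches differed so widely that this overlap says nothing about genotype. Within all 4 pairs of same-numbered mice, however, the mutant's sum was higher for Sertoli and endothelial markers and lower for macrophage markers, which was not tested. Between genotype means, the endothelial sum differed mostly through Cldn5 and the macrophage sum through Aif1. Bright genes weigh most in such sums. Ctsl averaged 10917 in controls among the Sertoli markers, and Ldhc 24298 and Hspa2 15050 among the spermatocyte markers. The overlap of these sums thus says little about the dimmer markers. The summed intensity of 6 spermatocyte markers lay between 51841 and 61673 in controls and between 51925 and 58225 in mutants, and 1 of the 6 (Pgk2) fell with either block. Sycp3, Hspa2 and Piwil1 had log2 differences of 0.07, 0.08 and -0.19. For 7 Sertoli cell markers the sums were 14977 to 18225 in controls and 16878 to 19794 in mutants, and the median log2 difference was 0.12, with Sox9 at 0.21. For 3 Leydig cell markers tested, including Star and Cyp17a1, the sums were 9561 to 16925 and 11903 to 18402, with a median of 0.12. The 5 epididymis markers had a median of -0.01. The 4 macrophage markers summed to 4394 to 6850 in controls and 3346 to 4893 in mutants. Of them Aif1 alone fell, with the replicate block (-1.93), and it averaged 2947 in controls and 885 in mutants. Adgre1, Cd68 and Csf1r had 0.09, 0.22 and 0.31. The 4 endothelial markers summed to 980.2 to 1268 and 1158 to 1699. Of them Cldn5 alone rose, with the batch block (0.67), and it averaged 532 in controls and 881 in mutants. Pecam1, Cdh5 and Kdr had 0.03, 0.04 and 0.05. None of these markers was at 0, and their part in the Prss values was not tested.

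The genes whose profiles over the 8 mice were most like those of Prss51, Prss55 and Prss37 were found by the mean absolute difference of log2 values after subtracting each gene's mean. For Prss51 they were Gm21283 (0.08), Paqr5 (0.16), 1700009J07Rik (0.17), Ubqlnl (0.18) and 1700015G11Rik (0.20), where the median gene stood at 1.68. Gm21283 read 414, 727, 591 and 409 in controls and 9.23, 56.7, 43.5 and 85.5 in mutants, so that its 8 mice stood in the same order as those of Prss51. For Prss55 they were Fam166a (0.07), Oaz3 (0.07), Trim17 (0.09), Tssk3 (0.10) and Trim80 (0.10), against a median of 1.14. For Prss37 they were 1700034E13Rik, H2al3, Rnf133, Fam71b and Rnf148 (0.18 to 0.20), against a median of 1.52. Among the members and Prss52, the closest pair was Prss21 and Prss44 (0.09), neither of them called, followed by Prss21 and Prss39 (0.19) and by Prss37 and Prss52 (0.20). The measure is not scaled to a gene's spread, so genes that vary little between mice stand close by it. Prss51 and Prss55, neighbours on chromosome 14, stood 0.55 apart. These likenesses are descriptions over 8 arrays that share genotype and batch.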

How the data were processed

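RNA of whole testis from 8 mice, 4 per genotype, was measured on Affymetrix arrays. The deposited values are linear signal intensity values made by the authors with GCOS, per the submitters' processing notes; the GCOS version is not given in the sources used here. No detection calls were used, so the distance of a dim probe set from background is unknown. Precision is limited by the number of arrays.

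Of 45037 probe sets that are not controls, 34945 had 1 symbol, 932 several and 9160 none, and 34741 symbols were updated through Entrez identifiers with RefSeq (GRCm38.p6). The deposited files name no genome build, so the only coordinates given are those of the RefSeq promoter windows. Values were taken as log2(value + 16). The 27022 probe sets above the 40th percentile of mean log2 value were kept, and the brightest per gene gave 13787 genes. Folds, given on this log2 scale, understate changes of dim genes.

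Genotypes were compared with limma 3.58.1 (R 4.3.3), lmFit and trended eBayes; tests were two-sided, Benjamini-Hochberg adjustment ran over all features and the threshold was 0.05. P-values measure the spread between mice. Deviations of same-numbered mice from their genotype means correlated (r between 0.515 and 0.677 in 4 pairs). By the rule used this counts as pairing, a hint from the data and not from the labels. Mice of different numbers were not compared, and mice of the same batch share its differences, so these values cannot tell pairing from batch. On simulated arrays for mutant against wild type (13787 genes, 200 changed) a change of 2 log2 units was found in 86% (no block), 97% (replicate block) and 98% (batch block) of genes given it. For 1 log2 unit these were 39%, 66% and 77%. The 3 whole fits made 2, 11 and 12 false calls. Changed genes were drawn at random and noise was independent between mice. The shares thus need not hold for a gene of wide spread, such as Prss37 (standard error 0.70 without a block).

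The 10 genes are all named. Of each comparison list (other Prss genes, ADAM3 maturation, serine protease inhibitors, acrosome and cell type markers) up to 4 genes with the smallest p are named, and for the 3 members with the smallest p the 5 genes with the most similar profiles. Adam3, Acr, Spint4, Ldhc, Zpbp, Zpbp2, Acrbp, Dpy19l2, Crisp2 and the genes beside members are named besides these and were chosen after values were seen. Members, lists and tests were chosen with earlier results of these data known. Figures were drawn with matplotlib 3.10.9.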

Additional observations from a re-analysis of the deposited data

How the results depend on the processing

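Between genotypes 39 genes and 1 of the 10 Prss genes were called without a block. The replicate block gave 475 genes and 3 members, the batch block 363 and 3, array weights 697 and 4, and leaving out mutant replicate 1 under the batch block 630 and 5 (Prss37, Prss51, Prss54 and Prss55 lower, Prss40 higher). A pseudocount of 1 gave 23 genes, a pseudocount of 64 gave 94, and a filter at the 60th percentile gave 22 genes and 0 members, since it removes Prss51. Within replicates 1 and 2 alone 0 genes and 0 members were called, and within replicates 3 and 4 alone 27 genes and 1 member (Prss51, limma, adjusted p = 0.0391). With 1 mouse left out the counts ran from 0 to 185 genes and from 0 to 3 members, and such fits leave the batches uneven. On probe sets of members the count was 1 in the unblocked fit, 3 under the replicate block and 3 under the batch block. Quantile normalization, median centring, no filter, no trend, robust eBayes and averaging the probe sets of a gene each gave 1 member called. The log2 differences of Prss37, Prss51, Prss54 and Prss55 were negative in every fit run, from -3.76 to -2.16, -3.83 to -2.54, -2.03 to -0.86 and -2.73 to -1.65. Signs turned only in genes near 0. Prss50 had 0.0027 with a pseudocount of 64, 0.27 within replicates 1 and 2, and -0.25 to 0.20 with 1 mouse left out. Prss39 had 0.029 within replicates 3 and 4, 0.078 under the batch block less mutant replicate 1, and -0.19 to 0.014 with 1 mouse left out. Prss21 had -0.0063 with array weights. The cause of these changes was not tested. Intensities without detection calls limit what can be said of Prss51 in mutants.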
